A study of Homo sapiens with 18 samples.

Results

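The genes described here are the matrix metalloproteases (MMP), the ADAM, ADAMTS and ADAMTSL families and the tissue inhibitors of metalloproteases (TIMP), chosen by gene symbol alone. Of 28395 genes in the RNA-seq tables, 72 carried such a symbol: 22 MMP, 22 ADAM, 19 ADAMTS, 5 ADAMTSL and 4 TIMP genes. A member was tested in a comparison if its normalised read count reached 10 in 3 or more of the libraries under comparison, and 35 members met this in at least 1 comparison (9 MMP, 10 ADAM, 10 ADAMTS, 2 ADAMTSL and all 4 TIMP genes). The other 37 members stayed at 12 or below in every library, and 8 of them (ADAM2, ADAM6, ADAM7, ADAMTS19, MMP12, MMP20, MMP26 and MMP27) were at 0 throughout.

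RNA-seq and ATAC-seq, which measures how open chromatin is to a transposase, were each performed on 3 cultures of 3 derivatives of K562, a human leukemia cell line with erythroid features. V-K562 cells carried the empty vector and served as the control, B-K562 cells expressed wild-type BASP1 (wtBASP1), a transcriptional corepressor that K562 cells otherwise lack, and G-K562 cells expressed BASP1-G2A, a mutant without the N-terminal glycine to which myristate is attached. All 3 lines were stably transfected and selected with G-418 as pools, so each line is 1 pool, and p-values measure the spread between cultures of a pool and not between lines made anew. Cells for ATAC-seq were treated with DNase before harvest. The question was which genes respond to wtBASP1 and which of these responses need its lipidation.

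MMPs are secreted or membrane-bound zinc proteases that cut collagens and other extracellular matrix proteins. ADAMs are membrane-anchored relatives, several of which release growth factors, cytokines and receptors from the cell surface, while the secreted ADAMTS proteases process procollagens, proteoglycans and von Willebrand factor. ADAMTSL proteins share the matrix-binding modules of ADAMTS proteases without the protease domain, and TIMPs bind and block the active sites of many of these enzymes. In blood cells, such enzymes are best known for cell surface shedding and for movement through matrix.

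BASP1 read counts were 7, 5 and 7 in V-K562 libraries, 6849, 6618 and 6189 in B-K562 libraries and 9323, 12538 and 8124 in G-K562 libraries, so the transgene was high in both lines labelled as expressing it. The deposited values were already scaled by the authors and summed to between 32074895 and 33229588 per library, so these totals do not show the sequencing depth. Values given below as reads are these scaled, rounded counts, and counting intervals treat them as if they were whole reads. All 8 K562 markers were detected in every library. Their summed value lay between 75068 and 84683 in V-K562, between 114271 and 117662 in B-K562 and between 37842 and 44383 in G-K562, where 5 of the 8 markers, among them the fetal and embryonic globins HBG1 and HBE1, were at least 2-fold lower than in V-K562. The summed value of 7 macrophage and monocyte markers lay between 1419 and 1481 in V-K562, between 1420 and 1552 in B-K562 and between 4129 and 4664 in G-K562. This sum is mostly LYZ, which alone had 1323 to 1369 reads in V-K562 and 3772 to 4301 in G-K562. Of the 4 markers tested in G-K562 against V-K562, LYZ and ITGAM were higher and CD14 and VSIG4 did not pass. CSF1R, MRC1 and CD163 were too low to test. In bulk RNA, fewer cells of a type and less RNA per cell cannot be told apart, and the part of these shifts in the G-K562 results was not tested.

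B-K562 replicate 1 stood apart from the other libraries of its line in some transcripts of stromal cells. COL3A1, a fibrillar collagen, had 575 reads there against 4 and 2 in replicates 2 and 3. It had 55 to 124 reads in V-K562 and 121 to 146 in G-K562, so replicates 2 and 3 also lay outside the other lines. Lumican (LUM) had 61 reads in replicate 1 against 1 and 3, and DCN had 64 against 13 and 16. COL1A1 (685 against 589 and 610) and PDGFRA (2 against 1 and 2) did not stand apart. The sum of the 9 stromal markers was 1866 in that library, 939 and 919 in the other 2, 1595 to 1930 in V-K562 and 1294 to 1412 in G-K562, and FAP was at 0 in every library. Among the proteases, MMP2 (28 against 4 and 6 reads), TIMP2 (20 against 3 and 1) and ADAMTS7 (19 against 0 and 3) were high only in that library of the line, as were ADAM12, ADAMTS12, ADAMTS15 and MMP16, which were too low to test. Whether stromal transcripts account for these values was not tested, and results that rest on this library are given with and without it.

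Per kilobase of merged exon, TIMP1 was the highest member in V-K562, with a normalised read count of 3831 ± 198 per kb (SD, n = 3), above 96.8% of tested genes. ADAMTSL4 (2498 ± 48.6 per kb) and ADAMTS14 (1290 ± 102 per kb) followed. The sheddases ADAM15 (718 ± 26.9 per kb) and ADAM17 (694.1 ± 21.4 per kb) came next and did not differ beyond their spread. The metalloprotease transcripts of these leukemia cells were led by an inhibitor, a protease-free matrix protein, a procollagen protease and widely expressed sheddases. The classical collagenases, gelatinases and stromelysins were scarce: MMP1 stood at 7.79 per kb and MMP2 at 4.45 per kb in V-K562, and the gelatinase MMP9 had 6, 4 and 6 reads in V-K562, 1, 3 and 3 in B-K562 and 7, 5 and 5 in G-K562, below the minimum for testing.

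In B-K562 cells more members fell than rose. Of 33 members tested against V-K562, 12 were lower and 1 was higher at adjusted p ≤ 0.05 and at least 2-fold (limma-trend, Benjamini-Hochberg over all genes), and 20 did not pass. Among all 14958 genes tested, 14.1% were lower and 6.46% higher by this rule. The median log2 difference was -0.85 over the members and 0.01 over all genes tested. ADAMTS genes made up 5 of the 12 that fell, MMPs 3, ADAMs 2 and TIMPs 2, and the single rise was ADAMTS9. Among the 12, ADAMTS16 reached the minimum for testing only in V-K562, so it could be tested only through the line in which it was high. ADAMTS4 (13, 8 and 5 reads in B-K562) and TIMP2 (20, 3 and 1) also met the minimum of 3 libraries only through V-K562. With quantile normalisation 8 members were lower and 3 higher. Without B-K562 replicate 1, 14 were lower and 1 was higher, and without V-K562 replicate 1, 12 were lower and 2 higher, ADAM28 being the second.

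In G-K562 cells the members moved in both directions. Of 34 tested against the same V-K562 libraries, 7 were lower, 7 were higher and 20 did not pass, against 10.3% lower and 8.81% higher among 15271 genes. The median log2 difference was 0.23 over the members and 0.00 over all genes. Those that fell were TIMP3, TIMP4, MMP2, ADAM19, ADAMTS6, ADAMTS9 and ADAMTS16. Those that rose were MMP1, MMP10, MMP15, ADAM8, ADAMTS4, ADAMTS20 and TIMP2. MMP10 reached the minimum for testing only in G-K562 and MMP2 and ADAMTS16 only in V-K562, so that these 3 could be tested only through the line in which they were high. ADAMTS20 (6, 10 and 9 reads in V-K562) met the minimum of 3 libraries only through G-K562. ADAMTS9 (7, 5 and 10 reads in G-K562) met it only through V-K562. When each library had to reach 10, 4 members were lower and 5 higher.

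The direct comparison of the 2 BASP1 lines, from a fit of all 9 libraries, gave 16 members higher and 4 lower in G-K562 of 35 tested, and 15 that did not pass. Over 15521 genes, 17.4% were higher and 12.5% lower. The median log2 difference was 0.81 over the members and -0.02 over all genes. MMPs contributed 6 of the 16 (of 9 tested), ADAMTS genes 4, ADAMs 3, TIMPs 2 and ADAMTSL4 the last, while ADAMTS6, ADAMTS9, ADAM28 and TIMP3 were lower. MMP10 reached the minimum for testing only in G-K562, so here too it could be tested only through the line in which it was high. ADAM21 without G-K562, and ADAM28 without B-K562, would have been short of the minimum of 3 libraries, so both also depended on the line in which they were high. When each library had to reach 10, 10 members were higher and 2 lower. Since B-K562 and G-K562 are each set against the same V-K562 libraries, the comparisons with V-K562 are not independent. The direct test is the one that compares the 2 BASP1 lines. Each BASP1 protein was present in a single pool, so a difference between the proteins cannot be told apart from one between the pools.

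**Figure D1:**
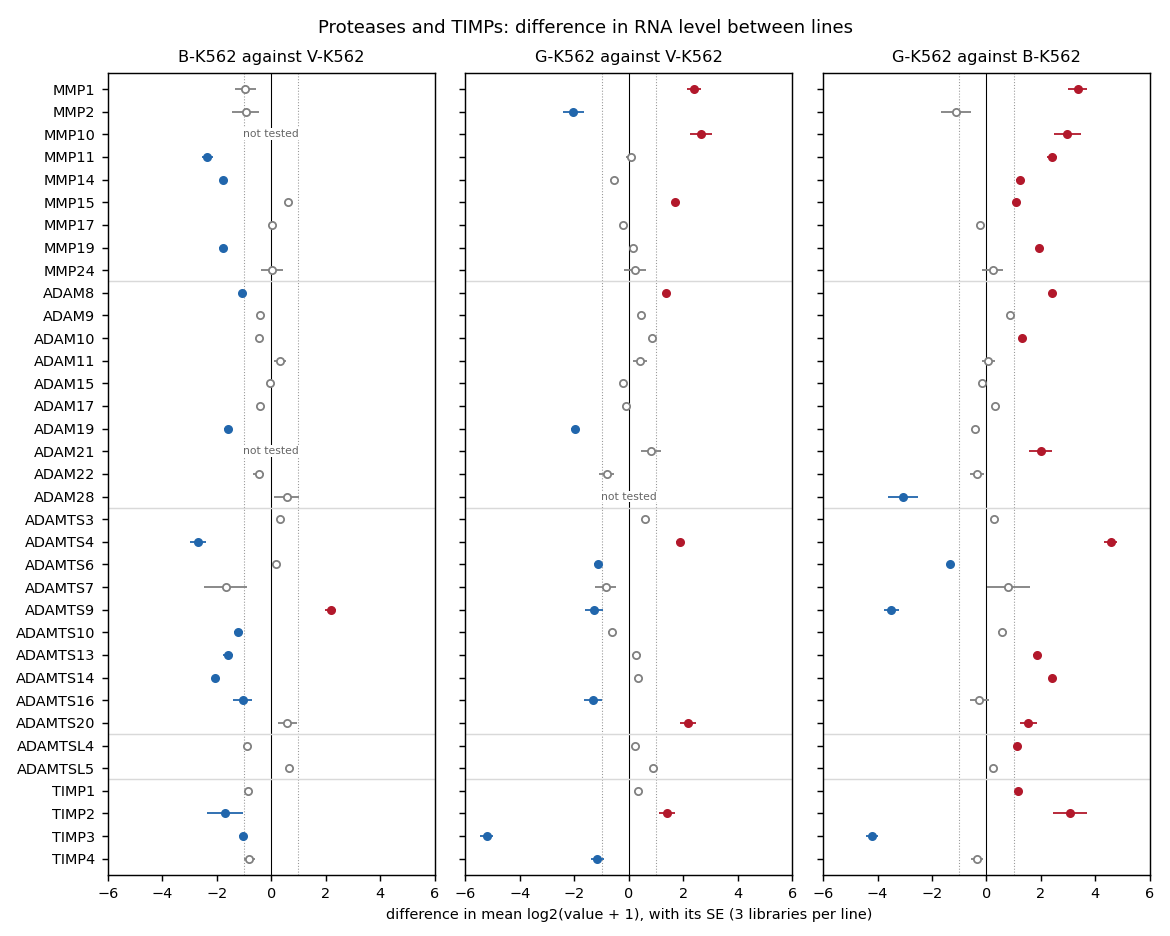
Difference in mean log2(normalised read count + 1) between lines for the 35 tested members, with its SE (3 libraries per line). Filled blue points were lower and filled red points higher by at least 2-fold at adjusted p ≤ 0.05, open points did not pass, dotted lines mark 2-fold, and B-K562 shows 12 blue and 1 red point against V-K562 where the comparison of G-K562 with B-K562 shows 16 red and 4 blue.

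**Figure D2:**
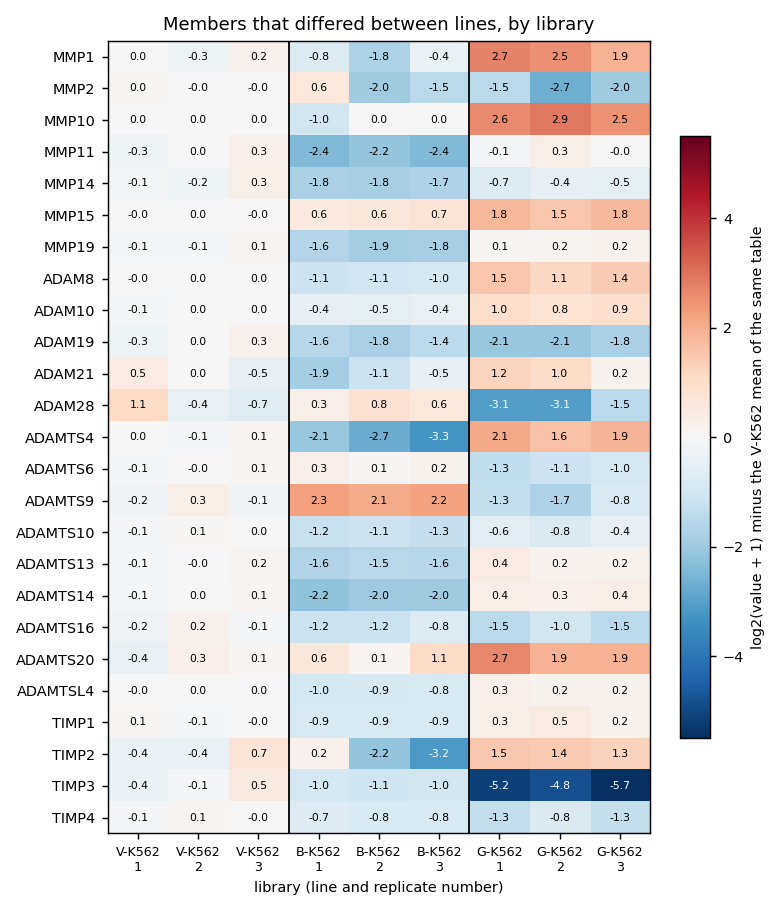
Difference of each library from the V-K562 mean on the log2(normalised read count + 1) scale for the 25 members that differed in at least 1 comparison, one column per library. TIMP3 reached its lowest values in the 3 G-K562 libraries, ADAMTS9 was high only in B-K562, and MMP2 and TIMP2 were near the V-K562 level in B-K562 replicate 1 only.

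Of the secreted MMPs, the interstitial collagenase MMP1 (gene 4312, chr11:102789910-102798235) had 16, 13 and 19 reads in V-K562, 9, 4 and 12 in B-K562 and 112, 98 and 63 in G-K562. All G-K562 libraries lay above every other library. On the log2(value + 1) scale MMP1 rose by 2.39 ± 0.25 (SE) in G-K562 against V-K562 (adjusted p = 6.14e-06) and stood 3.35 ± 0.34 above B-K562 (adjusted p = 4.63e-07). In B-K562 its difference from V-K562, -0.96 ± 0.38, was just under 2-fold (adjusted p = 0.0361). It passed with a pseudocount of 0.5 (-1.01) and without B-K562 replicates 1 (-1.06) or 3 (-1.25), and was -0.56 without replicate 2. The neighbouring stromelysin MMP10, which acts on proteoglycans and activates other MMPs, was at 1 read in each V-K562 library, at 0, 1 and 1 in B-K562 and at 11, 14 and 10 in G-K562. From so few reads the ratio of G-K562 to V-K562 was 11.7 (95% counting interval 3.68 to 59.3) and that of G-K562 to B-K562 was 17.5 (4.50 to 150.2), where the intervals cover counting error only.

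MMP11 and MMP19 were lower in B-K562 than in both other lines. MMP11, a stromelysin that leaves most matrix proteins uncut, had 61, 76 and 90 reads in V-K562, 13, 16 and 13 in B-K562 and 71, 94 and 75 in G-K562. It fell by 2.34 ± 0.21 in B-K562 (adjusted p = 2.75e-07) and in G-K562 was 2.41 ± 0.19 above its B-K562 level, while its difference between G-K562 and V-K562 was 0.06 ± 0.18. MMP19, a protease of basement membrane components (gene 4327, chr12:55835430-55842983), had 140, 141 and 162 reads in V-K562, 48, 38 and 41 in B-K562 and 159, 167 and 174 in G-K562. It fell by 1.78 ± 0.14 in B-K562 (adjusted p = 8.37e-08) and in G-K562 was 1.93 ± 0.13 above its B-K562 level. Its exons overlap those of TMEM198B on the other strand by 817 bp. TMEM198B had 786, 743 and 817 reads in V-K562, 587, 606 and 645 in B-K562 and 1033, 1014 and 1204 in G-K562, lowest in B-K562 as MMP19 was, and whether the counting used strand is not given in the sources used here.

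The gelatinase MMP2, which degrades denatured and basement membrane collagen, had 19, 18 and 18 reads in V-K562, 28, 4 and 6 in B-K562 and 6, 2 and 4 in G-K562. It fell by 2.04 ± 0.37 in G-K562 (adjusted p = 0.000493). In B-K562 the groups overlapped because of replicate 1, and the difference was -0.94 ± 0.51 (adjusted p = 0.110). Without that library it was -1.71 (adjusted p = 0.00072), and the difference between G-K562 and B-K562 went from -1.11 to -0.35 (adjusted p = 0.47).

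Among the membrane-type MMPs, MMP14, the collagenase that activates pro-MMP2 at the cell surface, had 523, 473 and 704 reads in V-K562, 163, 155 and 171 in B-K562 and 338, 420 and 407 in G-K562. The 3 lines did not overlap. MMP14 fell by 1.77 ± 0.12 in B-K562 (adjusted p = 1.90e-08) and in G-K562 was 1.22 ± 0.13 above its B-K562 level (adjusted p = 8.36e-07). Against V-K562 it was -0.55 ± 0.14 in G-K562, less than 2-fold. Its relative MMP15 had 446, 462 and 443 reads in V-K562, 663, 695 and 740 in B-K562 and 1646, 1309 and 1570 in G-K562, the V-K562 libraries being lowest. MMP15 rose by 1.71 ± 0.09 in G-K562 against V-K562 (adjusted p = 2.16e-08) and stood 1.08 ± 0.08 above B-K562, and its difference of 0.63 ± 0.07 between B-K562 and V-K562 was under 2-fold. The glycolipid-anchored MMP17, at 389 to 467 reads in V-K562, and MMP24 did not pass in any comparison.

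**Figure D3:**
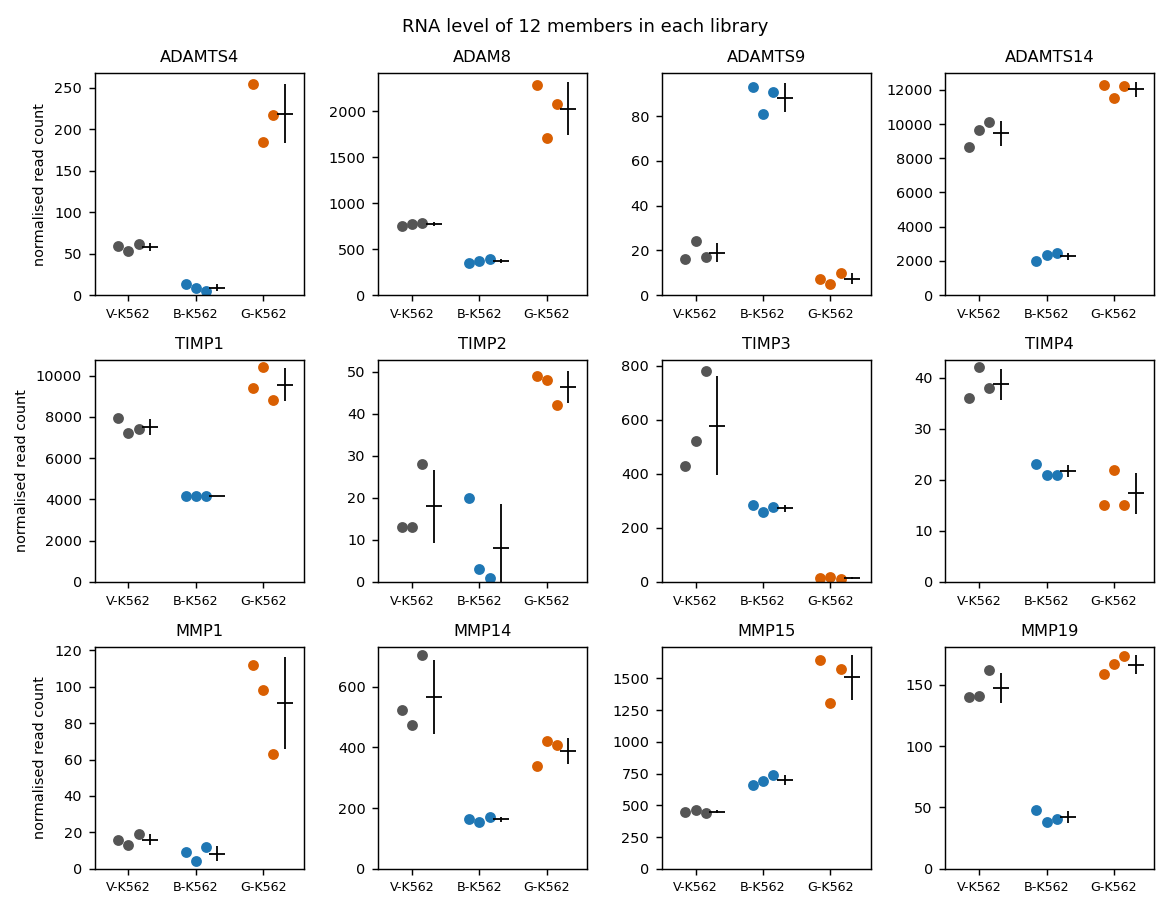
Normalised read counts of 12 members in each RNA-seq library, with points for replicates 1 to 3 from left to right and a bar for the mean ± SD (n = 3). MMP14, MMP19, ADAMTS14 and TIMP1 were lowest in B-K562, MMP1, MMP15, ADAM8 and ADAMTS4 highest in G-K562, and TIMP3 close to the axis in G-K562, where it held 10 to 19 reads.

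ADAM8, a leukocyte sheddase of adhesion receptors, had 749, 778 and 786 reads in V-K562, 347, 369 and 389 in B-K562 and 2286, 1716 and 2085 in G-K562. It fell in B-K562 and rose in G-K562. The log2 difference from V-K562 was -1.06 ± 0.07 in B-K562 (adjusted p = 9.02e-09) and 1.36 ± 0.09 in G-K562 (adjusted p = 2.10e-07), and G-K562 stood 5.37-fold above B-K562. ADAM19, a sheddase of neuregulin, went down in both lines, with 414, 519 and 602 reads in V-K562, 171, 147 and 187 in B-K562 and 119, 121 and 148 in G-K562. It fell by 1.59 ± 0.13 in B-K562 (adjusted p = 8.26e-08) and fell by 1.99 ± 0.14 in G-K562 (adjusted p = 2.91e-07), and the difference between the 2 BASP1 lines, -0.40 ± 0.14, was under 2-fold.

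The main sheddases of the cell surface moved less. ADAM10, which cuts Notch receptors and the amyloid precursor protein, had 3153, 3350 and 3354 reads in V-K562, 2425, 2347 and 2511 in B-K562 and 6460, 5690 and 6188 in G-K562. Neither difference from V-K562 reached 2-fold (-0.44 ± 0.05 in B-K562 and 0.87 ± 0.06 in G-K562), and G-K562 stood 1.31 ± 0.05 above B-K562 (adjusted p = 3.52e-11). ADAM17, which releases tumour necrosis factor and epidermal growth factor receptor ligands, had 2527, 2687 and 2597 reads in V-K562, 1972, 1930 and 1918 in B-K562 and 2582, 2282 and 2541 in G-K562, and its 3 log2 differences lay between -0.42 and 0.32. ADAM9 and ADAM15, and the catalytically inactive ADAM11 and ADAM22, did not pass in any comparison with all libraries. Without G-K562 replicate 3, ADAM22 passed in G-K562 against V-K562 (-1.09, adjusted p = 0.00434).

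The remaining ADAMs that passed were low. ADAM21, known from testis, had 14, 10 and 7 reads in V-K562, 2, 4 and 7 in B-K562 and 25, 22 and 12 in G-K562, and in G-K562 was 1.99 ± 0.43 above its B-K562 level (adjusted p = 0.000665). It lies on chromosome 14 beyond 70 Mb, where the median log2 difference of 203 tested genes was 0.61 in the same comparison. ADAM28, known from lymphocytes, had 16, 5 and 4 reads in V-K562, 9, 13 and 11 in B-K562 and 0, 0 and 2 in G-K562, and the ratio of B-K562 to G-K562 was 16.5 (95% counting interval 4.22 to 142).

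ADAMTS14, a procollagen N-propeptidase (gene 140766, chr10:70672539-70762441), was the most abundant protease of its family. It had 8640, 9640 and 10097 reads in V-K562, 2011, 2328 and 2436 in B-K562 and 12297, 11543 and 12243 in G-K562. ADAMTS14 fell 4.19-fold in B-K562 (log2 difference -2.07 ± 0.07, adjusted p = 3.56e-11) and in G-K562 was 5.25-fold above its B-K562 level (2.39 ± 0.07, adjusted p = 1.44e-12). In G-K562 it differed from V-K562 by only 0.32 ± 0.07. Its paralog ADAMTS3, with 922, 893 and 725 reads in V-K562, 993, 1090 and 1108 in B-K562 and 1308, 1258 and 1323 in G-K562, did not reach 2-fold in any comparison.

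ADAMTS4, an aggrecanase, had 59, 53 and 62 reads in V-K562, 13, 8 and 5 in B-K562 and 255, 184 and 217 in G-K562. The lines did not overlap. It fell by 2.69 ± 0.30 in B-K562 (adjusted p = 1.88e-06) and rose by 1.86 ± 0.15 in G-K562 (adjusted p = 6.37e-07). The resulting gap of 23.6-fold between G-K562 and B-K562 (log2 difference 4.56 ± 0.25, adjusted p = 6.97e-10) was the widest of the 35 members. ADAMTS9, an aggrecanase and versicanase, ran opposite, with 16, 24 and 17 reads in V-K562, 93, 81 and 91 in B-K562 and 7, 5 and 10 in G-K562. It rose by 2.18 ± 0.20 in B-K562 (adjusted p = 2.67e-07) and fell by 1.29 ± 0.33 in G-K562 (adjusted p = 0.00461), and the latter fell short of 2-fold with a pseudocount of 5 (-0.97). G-K562 stood 11.2-fold below B-K562.

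Of the other ADAMTS genes, ADAMTS13, the protease of von Willebrand factor, had 62, 66 and 75 reads in V-K562, 21, 23 and 22 in B-K562 and 94, 79 and 79 in G-K562. It fell by 1.57 ± 0.18 in B-K562 and in G-K562 was 1.86 ± 0.16 above its B-K562 level, the course taken by MMP11 and MMP19. ADAMTS10, which binds fibrillin, fell by 1.21 ± 0.16 in B-K562 from 73, 82 and 80 to 33, 35 and 32 reads, and with quantile normalisation the difference was -0.73, under 2-fold. ADAMTS16, at 11, 15 and 12 reads in V-K562, was lower at 5, 5 and 7 in B-K562 (-1.04 ± 0.35, adjusted p = 0.0154) and at 4, 6 and 4 in G-K562 (-1.31 ± 0.34, adjusted p = 0.00481). The B-K562 call for ADAMTS16 was lost without V-K562 replicate 2 (-0.92) and without B-K562 replicates 1 or 2 (-0.97 for each), with a pseudocount of 5 (-0.73) and with quantile normalisation (-0.22, adjusted p = 0.57), and the G-K562 call was lost with a pseudocount of 5 (-0.90).

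A pair of ADAMTS genes passed against V-K562 in G-K562 cells and not in B-K562 cells. ADAMTS20, a versicanase known from pigment cell migration, had 6, 10 and 9 reads in V-K562, 13, 9 and 18 in B-K562 and 57, 33 and 34 in G-K562, and rose by 2.16 ± 0.30 in G-K562 (adjusted p = 5.74e-05). With quantile normalisation ADAMTS20 also passed in B-K562 (1.46, adjusted p = 0.0033). ADAMTS6 had 158, 164 and 178 reads in V-K562, 204, 175 and 190 in B-K562 and 66, 76 and 87 in G-K562, and fell by 1.15 ± 0.14 (adjusted p = 1.93e-05). Both also differed between G-K562 and B-K562, by 1.54 ± 0.32 and -1.33 ± 0.12. ADAMTS7, with 11, 11 and 17 reads in V-K562, 19, 0 and 3 in B-K562 and 4, 10 and 7 in G-K562, did not pass in any comparison in the main fit of all libraries. With a term for the replicate number added to the fit, ADAMTS7 passed in B-K562 against V-K562 (-1.67, adjusted p = 0.0255). Without B-K562 replicate 1, the library high in COL3A1 and LUM, ADAMTS7 passed in B-K562 against V-K562 (-2.78, adjusted p = 0.00117) and in G-K562 against B-K562 (1.92, adjusted p = 0.0091). Without G-K562 replicate 2 it passed in G-K562 against V-K562 (-1.12, adjusted p = 0.0277).

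ADAMTSL4, a protein of fibrillin microfibrils that is required to hold the eye lens in place, had 14129, 14682 and 14491 reads in V-K562, 7339, 7824 and 8040 in B-K562 and 17932, 17005 and 16724 in G-K562. The difference between B-K562 and V-K562, -0.90 ± 0.05, stayed under 2-fold (adjusted p = 1.31e-09), and G-K562 was 1.13 ± 0.05 above B-K562 (adjusted p = 4.59e-11). ADAMTSL5 was at 345 to 379 reads in V-K562 and did not reach 2-fold in any comparison.

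The TIMPs restrain the enzymes above. TIMP3, the matrix-bound inhibitor that also blocks ADAM17 and aggrecanases (gene 7078, chr22:32800816-32863041), had 430, 521 and 782 reads in V-K562, 284, 258 and 276 in B-K562 and 15, 19 and 10 in G-K562. Every G-K562 library was more than an order of magnitude below every V-K562 library. TIMP3 fell by 5.23 ± 0.25 in G-K562 (37.5-fold, adjusted p = 1.22e-08), the widest change of any member against V-K562. In B-K562 it fell by 1.04 ± 0.16 (adjusted p = 4.28e-05), and it was under 2-fold without V-K562 replicate 3 (-0.80), without B-K562 replicate 2 (-0.996) and with quantile normalisation (-0.95). TIMP3 lies within an intron of SYN3, a synapsin gene read from the other strand, with no overlap of exons. SYN3 had 112, 119 and 117 reads in V-K562, 62, 55 and 47 in B-K562 and 0, 1 and 0 in G-K562, so that both genes of the locus were lowest in G-K562.

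TIMP1, the secreted inhibitor also known for its effect on erythroid growth, had 7953, 7198 and 7410 reads in V-K562, 4165, 4148 and 4162 in B-K562 and 9420, 10441 and 8830 in G-K562. The lines did not overlap. Its difference of -0.85 ± 0.05 in B-K562 (adjusted p = 2.22e-09) was under 2-fold, and G-K562 stood 1.17 ± 0.06 above B-K562 (adjusted p = 2.35e-10). TIMP4 had 36, 42 and 38 reads in V-K562, 23, 21 and 21 in B-K562 and 15, 22 and 15 in G-K562. It fell by 1.16 ± 0.23 in G-K562 (adjusted p = 0.000921), and fell by 0.98 with quantile normalisation, and was -0.81 ± 0.20 in B-K562.

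TIMP2, the inhibitor that takes part in pro-MMP2 activation by MMP14, had 13, 13 and 28 reads in V-K562, 20, 3 and 1 in B-K562 and 49, 48 and 42 in G-K562 (gene 7077, chr17:78852977-78925390). It rose by 1.39 ± 0.30 in G-K562 against V-K562 (adjusted p = 0.00144) and was 3.08 ± 0.63 higher there than in B-K562 (adjusted p = 0.000423). In B-K562, where replicate 1 overlapped V-K562, it fell by 1.69 ± 0.67 (adjusted p = 0.0347). This call was lost without V-K562 replicates 2 or 3 (adjusted p of 0.079 and 0.14), without B-K562 replicates 2 or 3 (0.10 and 0.17), without a filter on low values (0.10) and with quantile normalisation (-0.85, adjusted p = 0.24). Without B-K562 replicate 1, the library high in COL3A1 and LUM, the difference was -2.66, and G-K562 stood 4.05 above B-K562 (adjusted p = 9e-07).

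Of 26 genes that process, anchor or inhibit these proteases, 20 were tested in B-K562 against V-K562, where 8 were lower and 1 was higher (14.1% and 6.46% of all genes). Among these 8, 1 gene reached the minimum for testing only in V-K562 and could be tested only through the line in which it was high. In G-K562 against V-K562, 2 of 21 were lower and 4 higher (10.3% and 8.81% of all genes), and between G-K562 and B-K562, 3 of 21 were lower and 8 higher (12.5% and 17.4% of all genes). PLAU, the urokinase that activates plasminogen, differed by -1.14 ± 0.08 in B-K562 and 2.14 ± 0.09 in G-K562. RECK, a membrane-anchored inhibitor of MMPs, fell by 2.16 ± 0.21 in B-K562, from 52, 61 and 62 to 12, 11 and 14 reads, and was -0.35 ± 0.17 in G-K562.

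Partners of the sheddases also differed. RHBDF2, which carries ADAM17 to the cell surface, fell by 1.25 ± 0.28 in B-K562 and rose by 1.76 ± 0.18 in G-K562. Of the tetraspanins that escort ADAM10, TSPAN17 rose by 1.30 ± 0.05 and TSPAN15 fell by 1.30 ± 0.23 in B-K562. TSPAN10 rose by 2.10 ± 0.37 in G-K562, from 3, 4 and 2 to 17, 19 and 12 reads. It is counted above though it reached the minimum only in G-K562 and could be tested only through the line in which it was high. TSPAN5 fell by 1.83 ± 0.10 in G-K562, and TSPAN33 fell by 1.80 ± 0.17 in B-K562 and fell by 1.30 ± 0.14 in G-K562. FURIN, a convertase that removes the propeptides of many of these proteases, had 8431, 9128 and 9055 reads in V-K562, 9795, 9964 and 10209 in B-K562 and 10306, 9318 and 9266 in G-K562, less than 2-fold apart.

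ATAC-seq peaks of the 9 libraries were merged into 85549 regions, of which 139 lay within 5 kb of a tested member. These regions belonged to 31 of the 35 tested members, and 14 members had a region over their start. Against V-K562, 8 of 87 tested regions were closed and 0 opened in B-K562 by at least 2-fold, where 6.16% of all regions were closed and 1.53% opened. At adjusted p ≤ 0.05 without the 2-fold rule, limma-trend gave 15 closed and 3 opened (16.6% and 8.58% of all regions), and at an unadjusted p-value under 0.05 it gave 22 regions lower and 11 higher in B-K562. In G-K562, 9 of 88 regions were closed and 2 opened, against 13.1% closed and 2.91% opened among all regions. Between G-K562 and B-K562, 6 of 94 were closed and 5 opened, against 8.5% and 4.37%. These shares lay near the background. The openings against V-K562 varied with single libraries: in B-K562 2 regions were opened without V-K562 replicate 2, and in G-K562 4 were opened without V-K562 replicate 2, 1 without V-K562 replicate 1 or G-K562 replicate 3, and 0 without G-K562 replicate 2.

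The counts depended on how libraries were scaled. Peak heights came from libraries sampled to equal tag numbers, and before testing they were divided by factors of 0.862 to 1.17 that equalise the peaks shared by all libraries. With equal tags as the only normalisation, 6 regions were closed and 2 opened in B-K562, 6 were closed and 7 opened in G-K562, and 2 were closed and 8 opened between G-K562 and B-K562. That choice moved the median of all regions from -0.06 to 0.06, from -0.09 to 0.19 and from 0.00 to 0.12. Peak heights below are as deposited, the log2 differences are after scaling, and each region named as closed or opened kept its sign under both.

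In all, 21 regions at 13 members were closed or opened in at least 1 comparison, and 14 of these lay in introns, 5 upstream and 2 in exons, with 4 of the 21 over a start. Of all 139 regions at tested members, 81 lay in introns, 25 upstream, 16 in exons and 17 downstream. A region with few or no peaks in a line could be tested only through the line in which it was high. Its absent peaks were set to a floor of 17 tags. Some closed or opened regions were of this kind, among them regions at ADAM19, MMP2, TIMP2 and the ADAMTS14 start. Of the 12 members that fell in B-K562, 4 (ADAM19, ADAMTS14, MMP19 and TIMP2) had a region closed in the same comparison. So did 2 members that did not pass in RNA there (ADAM9 and TIMP4). The share among all genes that fell was not counted, and members differ in how many regions they hold. The ADAMTS14 call was lost with equal tags as the only normalisation (-0.987) and in 5 of 6 fits that left out a library. ADAM8, ADAMTS4, ADAMTS13, MMP11 and MMP15 changed in RNA without a region that passed.

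At MMP19 a region 5081 bp upstream of the start (chr12:55847839-55848305, intergenic) had peak heights of 65, 108 and 102 tags in V-K562, 32, 27 and 42 in B-K562 and 122, 93 and 116 in G-K562. Its height in B-K562 fell by 1.56 on the log2 scale (adjusted p = 0.00432) and in G-K562 was 1.49 above its B-K562 level (adjusted p = 0.000712), the order seen in MMP19 RNA. The peak over the MMP19 start (38, 40 and 36 tags in V-K562, 31, 29 and 33 in B-K562 and 51, 40 and 45 in G-K562) did not pass.

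TIMP2 held a pair of intronic regions with the same order. The first (chr17:78883149-78883620) had 62, 79 and 48 tags in V-K562, a peak of 22 tags in only 1 B-K562 library, and 118, 78 and 66 tags in G-K562. The second (chr17:78862021-78862717) had 134, 116 and 144 tags in V-K562, 69, 56 and 42 in B-K562 and 137, 157 and 152 in G-K562. Their log2 differences in B-K562 were -1.78 and -1.40 (adjusted p = 0.00282 and 0.00264), and in G-K562 they were 1.93 and 1.22 above their B-K562 levels. In this library set B-K562 replicate 1 did not stand apart at either region, unlike in TIMP2 RNA. Another TIMP2 region, in an exon (chr17:78854015-78854444), took another course and fell by 1.56 in G-K562.

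An intronic region of TIMP4 (chr3:12155764-12156216), which also lies within SYN2 on the other strand, had 102, 101 and 111 tags in V-K562, 60, 48 and 38 in B-K562 and 46, 39 and 28 in G-K562. It closed in both lines, with log2 differences of -1.26 in B-K562 (adjusted p = 0.00283) and -1.82 in G-K562 (adjusted p = 0.000541). TIMP4 RNA passed in G-K562 and not in B-K562. ADAM19, which also fell in both lines, had 4 intronic regions that closed in at least 1 line. The clearest (chr5:157534919-157535494) had 45, 56 and 62 tags in V-K562, 33, 31 and 27 in B-K562 and no peak in any G-K562 library. A peak over the ADAM19 start was called only in B-K562 libraries, at 33, 29 and 29 tags.

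The ADAMTS14 start carried a peak (chr10:70672065-70672853) of 79, 81 and 78 tags in G-K562, of 63 tags in V-K562 replicate 2 alone and of none in B-K562. G-K562 was 1.97 above B-K562 there (adjusted p = 0.00987), as its RNA was. This region met the minimum of 3 libraries with a peak only through G-K562, and its B-K562 values were all set to the floor of 17 tags. Regions within the gene went the other way: those at chr10:70693586-70694210 and chr10:70715783-70716407 had log2 differences of -1.11 and -1.04 between G-K562 and B-K562. Both calls were lost with equal tags alone (-0.98 and -0.84), and in 4 and 2 of 9 fits that left out a library.

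Some regions ran against the RNA of the nearest member. The peak over the ADAM22 start had 24, 19 and 22 tags in V-K562, 28, 21 and 30 in B-K562 and 56, 61 and 53 in G-K562. It opened by 1.01 in G-K562 against V-K562 (adjusted p = 0.00417), while ADAM22 RNA was at -0.81 ± 0.28. That call was lost in 2 of 6 fits that left out a library. The ADAMTSL4 upstream region, 3609 bp before the start (chr1:150545470-150546014), had 138, 129 and 125 tags in V-K562, 271, 315 and 239 in B-K562 and 114, 103 and 125 in G-K562, and its log2 difference between G-K562 and B-K562 was -1.46 (adjusted p = 1.55e-05), while ADAMTSL4 RNA was higher there. An ADAMTS3 intronic region (chr4:72473469-72474014) fell from 104, 114 and 94 tags in V-K562 to 62, 54 and 57 in B-K562 and 22, 23 and 17 in G-K562, a log2 difference of -2.56 from V-K562 (adjusted p = 0.000173), with ADAMTS3 RNA at 0.60 ± 0.09 in the opposite direction. An ADAMTS9 intronic region differed by -1.01 between G-K562 and B-K562, in the direction of its RNA. That call was lost with equal tags alone (-0.949) and in 1 of 9 fits that left out a library. Peaks over the starts of TIMP1 (119, 145 and 138 tags in V-K562, 152, 204 and 195 in B-K562 and 188, 192 and 204 in G-K562), ADAM10 and ADAM17 did not pass in any comparison, and the 3 regions at TIMP3 were weak, at 39 tags or fewer, and not closed or opened.

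**Figure D4:**
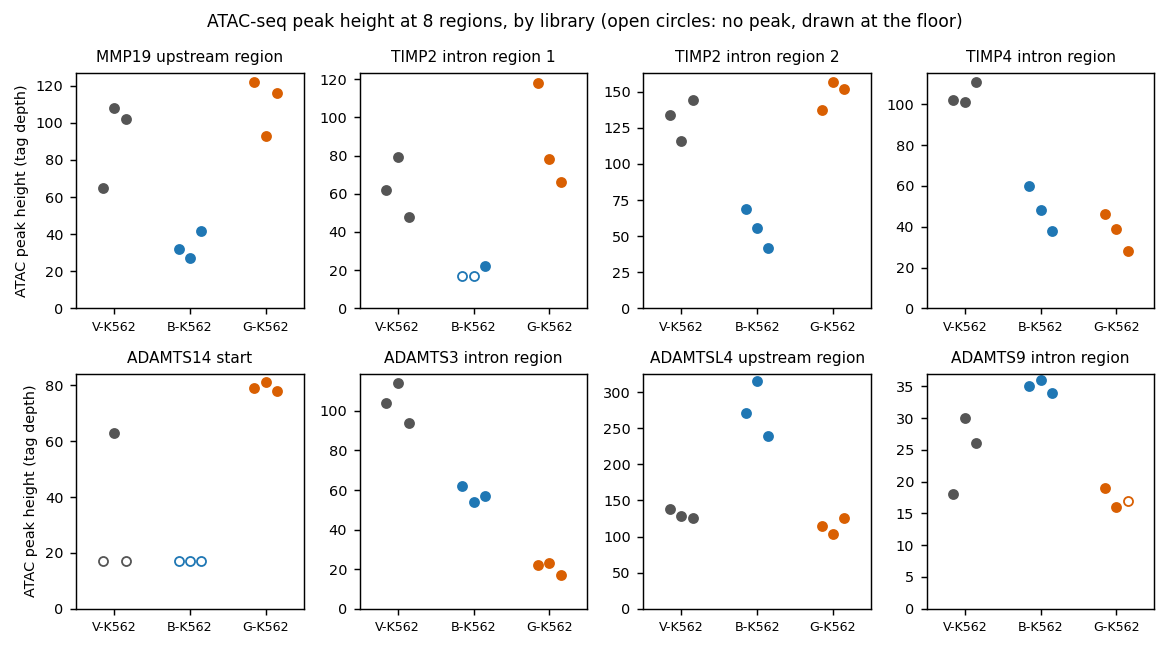
Deposited ATAC-seq peak height, in tags at the summit and before scaling, in each library at 8 regions, with replicates 1 to 3 from left to right. Open circles mark libraries without a called peak, drawn at the floor of 17 tags, and the MMP19 region and both TIMP2 regions were lowest in B-K562 while the TIMP4 and ADAMTS3 regions were low in both BASP1 lines.

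The sequences below are shown because they lie under regions of MMP19, TIMP2 and TIMP4 that closed in B-K562, and under the ADAMTS14 start, where only G-K562 had a peak in every library. The windows hold 300 bases around the summit of each region, read from the plus strand of GRCh38. Capitals mark the AP-1 motif TGAGTCA on either strand, the site of FOS and JUN proteins that is well known from MMP and TIMP gene control, and the GATA motif AGATAA on either strand, of which these windows held none. The ADAMTS14 promoter is the 250 bases before its RefSeq start, and capitals there mark the GC box GGGCGG on either strand.
MMP19 upstream region, chr12:55847915-55848214: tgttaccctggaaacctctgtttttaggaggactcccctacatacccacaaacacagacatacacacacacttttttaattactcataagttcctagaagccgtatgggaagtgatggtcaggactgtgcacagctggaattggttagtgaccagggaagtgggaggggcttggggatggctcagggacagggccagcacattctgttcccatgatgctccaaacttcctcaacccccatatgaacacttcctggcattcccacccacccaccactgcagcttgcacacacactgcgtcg
TIMP2 intron region 1, chr17:78883211-78883510: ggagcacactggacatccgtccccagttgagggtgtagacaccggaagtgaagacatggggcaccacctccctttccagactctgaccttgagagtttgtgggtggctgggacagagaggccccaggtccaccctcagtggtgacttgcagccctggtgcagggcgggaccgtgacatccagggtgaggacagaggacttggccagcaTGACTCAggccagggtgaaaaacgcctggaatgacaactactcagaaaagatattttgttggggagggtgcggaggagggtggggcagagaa
TIMP2 intron region 2, chr17:78862187-78862486: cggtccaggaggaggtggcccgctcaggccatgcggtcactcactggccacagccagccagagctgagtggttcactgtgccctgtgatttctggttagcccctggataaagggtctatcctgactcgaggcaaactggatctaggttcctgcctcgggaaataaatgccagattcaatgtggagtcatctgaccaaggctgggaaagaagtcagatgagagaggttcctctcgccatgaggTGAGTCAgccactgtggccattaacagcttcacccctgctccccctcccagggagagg
TIMP4 intron region, chr3:12155851-12156150: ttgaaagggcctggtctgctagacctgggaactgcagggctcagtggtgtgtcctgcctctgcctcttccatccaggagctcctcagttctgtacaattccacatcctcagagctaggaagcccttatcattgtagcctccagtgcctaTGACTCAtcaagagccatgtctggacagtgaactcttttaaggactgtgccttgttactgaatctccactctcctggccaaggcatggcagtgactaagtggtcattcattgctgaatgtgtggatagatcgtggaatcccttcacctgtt
ADAMTS14 promoter, chr10:70672256-70672505, plus strand: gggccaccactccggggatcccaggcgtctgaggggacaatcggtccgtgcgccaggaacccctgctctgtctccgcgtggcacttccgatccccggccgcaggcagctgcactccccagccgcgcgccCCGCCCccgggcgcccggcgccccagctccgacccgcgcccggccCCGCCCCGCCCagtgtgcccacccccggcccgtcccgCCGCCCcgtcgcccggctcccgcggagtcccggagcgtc

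Both TIMP2 windows and the TIMP4 window held 1 AP-1 motif each, and the MMP19 window held neither motif. Of the 21 regions at members that closed or opened, 33.3% held an AP-1 motif and 23.8% a GATA motif in their summit window. Among the summit windows of all 85549 regions the shares were 16.5% and 23.4%. RefSeq promoter windows were found for 24 of the 35 tested members (25 windows). Of these 0% held the AP-1 motif and 80% a GC box, where the shares over 27305 promoters were 4.16% and 42.3%. In 25 windows, 0% is near a share of 4.16%. The 27305 promoters were not filtered by expression and the tested members were, so the GC box shares are not like for like. A match describes the letters in these windows and not binding, and MMP1 and TIMP2 had no promoter entry.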

How the data were processed

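The members and gene lists were chosen with earlier results of these data known. The authors mapped RNA-seq reads to GRCh38 with STAR, removed duplicates, counted unique reads on RefSeq genes with Subread, and deposited counts scaled by DESeq2 and rounded to whole numbers, a signal per gene in 1 table for each BASP1 line with V-K562. For ATAC-seq the authors used BWA-MEM, equalised the tag number and ran MACS2 on each library, and the deposited signal is the tag depth at each peak. Their fold changes, p-values and group means were not used. Because the values are not raw counts, limma 3.58.1 (R 4.3.3) with a trended prior was run on log2(value + 1) over all genes, or regions with a peak in at least 3 libraries, with Benjamini-Hochberg adjustment and calls at adjusted p ≤ 0.05 with a change of 2-fold or more. The fit was tested on simulated data. For G-K562 against B-K562, the factor 1.017, the mean ratio of the V-K562 columns of both tables, put B-K562 values on the scale of the other table. ATAC-seq intervals were merged where they overlapped, and heights below 17 tags or absent were set to 17. Named members are those called in at least 1 comparison plus TIMP1 to TIMP4, MMP2, MMP9, MMP14, ADAM10 and ADAM17, and others are named without a change claimed in the main RNA-seq fit. Sequences are from GRCh38 and RefSeq promoters. Alternatives covered filters, pseudocounts, scaling, a replicate block and left-out libraries. Tables were made in Python 3.11.15 (pandas 2.3.3, numpy 2.4.6) and plots in matplotlib 3.10.9. A gene of the list of processing, anchoring and inhibiting genes is counted but not reported here by name.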

Additional observations from a re-analysis of the deposited data

Results flagged for a closer look

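For 4 members the differences of B-K562 and of G-K562 from V-K562 passed in opposite directions. The share of all genes with this pattern was not counted. The direct test between the lines (limma-trend on log2(value + 1), Benjamini-Hochberg over 15521 genes) uses the same libraries. For members chosen in this way a large direct difference follows from the choice, so that it passed adds no support, and the differences are given as sizes. ADAMTS4 stood 4.56 above B-K562 in G-K562, with 255, 184 and 217 reads against 13, 8 and 5. TIMP2 was 3.08 higher, with 49, 48 and 42 reads against 20, 3 and 1 (4.05 without B-K562 replicate 1), and its fall in B-K562 against V-K562 did not hold under each alternative. ADAM8 was 2.43 higher, with 2286, 1716 and 2085 reads against 347, 369 and 389. ADAMTS9 differed by -3.49, with 7, 5 and 10 reads in G-K562 against 93, 81 and 91 in B-K562. The fitted differences of ADAMTS4, TIMP2 and ADAMTS9 involve groups of under 25 reads per library, where counting error is large. Both comparisons with V-K562 share its libraries, and the cause of these differences was not tested.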

How the results depend on the processing

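In this text, counts are given in the order B-K562 against V-K562, G-K562 against V-K562, G-K562 against B-K562, where 12, 7 and 4 members were lower and 1, 7 and 16 higher. Without the 2-fold rule 19, 11 and 7 (of 33, 34 and 35 tested) were lower and 4, 14 and 21 higher. The shares over all genes by that rule were 37.2%, 33.3% and 40.5% lower and 38.6%, 33.5% and 38.1% higher. Without a filter on low values 4 were higher in the first and 8 lower in the third comparison. Requiring a value of at least 10 in every library left 4 lower in the second, and 2 lower and 10 higher in the third. Quantile normalisation gave 3 higher in the first. Leaving out 1 library at a time gave 9 to 14 lower and 1 to 2 higher in the first, 7 to 8 and 7 to 8 in the second, and 4 to 5 and 16 to 17 in the third.

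For ATAC-seq, 8, 9 and 6 regions were closed and 0, 2 and 5 opened. Without the 2-fold rule 15, 22 and 13 (of 87, 88 and 94 tested) were closed and 3, 13 and 13 opened. The shares over all regions by that rule were 16.6%, 25.9% and 15.4% closed and 8.58%, 16.1% and 12.7% opened. A peak in every library left 4 closed in the first, 4 closed and 1 opened in the second, and 2 opened in the third. Equal tags alone gave 2 opened in the first, 7 opened in the second, and 2 closed and 8 opened in the third. Leaving out 1 library gave 6 to 10 closed and 0 to 2 opened, 8 to 10 and 0 to 4, and 4 to 6 and 4 to 6. Limiting regions to those whose closest gene is the member changed no count.

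Libraries with the same replicate number deviated together weakly if at all (correlations of -0.08 to 0.136 in RNA-seq and 0.008 to 0.122 in ATAC-seq). In ATAC-seq these were all positive and highest for replicate 1, where libraries of unlike number reached at most 0.048. The numbers were not taken to pair the cultures, and a replicate block was fitted as an alternative. With a replicate block 13, 7 and 5 members were lower and 1, 7 and 16 higher, ADAMTS7 passed in the first (-1.67), MMP2 passed in the third (-1.11, but -0.35 with an adjusted p of 0.47 without B-K562 replicate 1 and no block), and 1 region was opened in the first and 4 in the second comparison. Of the values of named members under the alternatives, 924 kept their side of the threshold, 13 gained a call, 18 lost one and none reversed. The cause of these shifts was not tested. Below about 20 reads a value rests on few molecules.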

Other observations

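Some members below the minimum for testing are given as values, chosen after their values were seen. ADAMTSL1, a protease-free ADAMTS relative, had 3, 5 and 3 reads in V-K562, 2, 4 and 1 in B-K562 and 4, 12 and 10 in G-K562. ADAM18, known from testis, had 7, 7 and 8 reads in V-K562, 10, 7 and 6 in B-K562 and 1, 2 and 4 in G-K562. MMP16, a membrane-type MMP, had 11 reads in B-K562 replicate 1, the library high in COL3A1 and LUM, 1 read in V-K562 replicate 1 and 0 in the other libraries.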
